A study of Arabidopsis thaliana with 16 samples.

Results

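Of 32833 loci measured in Arabidopsis thaliana, 24 nuclear protein-coding genes were lower at dusk than in the morning in petals of 2 genotypes with little or no CONSTANS (CO) transcript and not, or far less so, in petals that overexpressed CO. They were chosen by their values. D was the mean log2(FPKM + 1) at ZT16 minus the mean at ZT4, and a gene was kept where D was -2 or lower in Col-0 and in co-10 and above -0.5 in 35S:CO. FPKM are fragments per kilobase of transcript scaled to the size of the library, and ZT is the number of hours after lights on. Every petal contrast between times therefore entered the choice, and petal values are given as a description without a test.

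The study sequenced 16 libraries, 2 per group, labelled as biological replicates. The petal groups were 35S:CO, which carries CO behind the constitutive 35S promoter and so outside its normal cells and hours, co-10, a CO null mutant, and wild-type Col-0, each collected at ZT16 and at ZT4. The seedling groups were 35S:CO and Col-0, whole 10-day-old plants collected at ZT16. All plants grew on compost under long days of 16 h light and 8 h dark. No petal age or floral stage was given, and no label says whether replicates came from separate sowings. The p-values below measure the spread between these libraries.

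CO is a B-box protein of the photoperiod pathway whose CCT domain contacts TGTG-containing DNA together with NF-Y subunits. In long-day leaves it accumulates towards dusk and induces FT, the mobile signal for flowering. Many chloroplast, clock and light-response transcripts peak in the morning and decline through the afternoon, under clock factors that bind evening elements and light factors that bind G-boxes.

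The stretches around each G-box found upstream are shown first, because the G-box is a known light-response element and 6 of the 24 genes hold one there (25%), against 7.09% of all genes compared. UP6, LHCB2.3 and LEA4-5 were higher in 35S:CO seedlings, FRO6 and FRO7 did not pass the test there and PP2-B15 was not tested. SIGE, another of the 24 genes, was also higher in 35S:CO seedlings and holds no G-box upstream. The stretches were read from the RefSeq TAIR10.1 genome on the strand of the gene, from the 300 bases before each gene start. Capitals mark CACGTG. The order is PP2-B15 (chr1:2951223-2951280, minus strand), UP6 (chr1:5727471-5727537, minus), LHCB2.3 (chr3:10255798-10255843, plus), LEA4-5 (chr5:2090532-2090577, minus), FRO6 (chr5:20204668-20204713, minus) and FRO7 (chr5:20208870-20208915, minus). No stretch overlaps an annotated gene.
PP2-B15: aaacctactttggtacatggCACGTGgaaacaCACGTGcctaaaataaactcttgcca
UP6: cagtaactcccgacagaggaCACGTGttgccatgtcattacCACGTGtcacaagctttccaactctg
LHCB2.3: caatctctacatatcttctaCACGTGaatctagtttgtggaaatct
LEA4-5: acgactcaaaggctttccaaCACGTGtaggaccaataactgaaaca
FRO6: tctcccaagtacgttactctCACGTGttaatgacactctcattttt
FRO7: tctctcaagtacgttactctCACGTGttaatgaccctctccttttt
The FRO6 and FRO7 stretches, upstream of 2 neighbouring genes, were identical at 43 of 46 bases, so the count of 6 genes includes a near-identical pair. The G-boxes began between 88 and 271 bases before the gene start, in LHCB2.3 and PP2-B15.

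LHCB2.3 had the largest difference between 35S:CO and Col-0 among the 24 genes, in petals at ZT16 and in seedlings, so its whole upstream window is given (chr3:10255606-10255905, plus strand). Capitals mark the G-box and 3 copies of CCACA, the reverse complement of TGTGG, which holds the TGTG core that CO contacts. They start 111, 73 and 15 bases before the gene start, and the one at 73 lies on the minus strand and reads TGTGG in the line below.
LHCB2.3: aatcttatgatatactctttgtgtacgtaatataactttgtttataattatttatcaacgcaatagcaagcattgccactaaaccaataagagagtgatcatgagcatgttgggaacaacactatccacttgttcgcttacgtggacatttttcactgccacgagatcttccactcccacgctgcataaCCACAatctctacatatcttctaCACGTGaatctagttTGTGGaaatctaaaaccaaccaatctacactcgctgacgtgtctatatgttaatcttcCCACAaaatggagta
The 24 windows were compared with those of 27438 protein-coding genes of the table, on both strands. CACGTG stood in 6 of 24 windows (25%, with FRO6 and FRO7 counted separately), against 7.09% of all windows. ACGTGG, the core of abscisic acid response elements, which overlaps a G-box followed by G, stood in 8 windows (33.3%), against 9.13%. CCACA stood in 10 windows (41.7%), against 32.8%, and its longer form CCACAC, the morning element, in 2 (8.33%), against 7.23%.
The I-box GATAAG stood in 6 windows (25%), against 14.5%, and the heat shock element GAANNTTC in 2 (8.33%), against 11.5%. The evening element AAATATCT was found in 1 window, that of PP2-B15 (4.17%), against 5.64%. The CCA1-binding site AAAAATCT was found in none of the 24 windows, against 7.94% of all. These are letter matches in a short window and were not tested.

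CO itself marked the genotypes. It had 625 and 507 FPKM in 35S:CO petals at ZT16 and 472 and 414 FPKM at ZT4, at most 0.260 FPKM in co-10 petals and at most 0.703 FPKM in Col-0 petals. In seedlings it had 315 and 297 FPKM in 35S:CO and 1.91 and 2.1 FPKM in Col-0. The co-10 and Col-0 petals were thus both near 0 for CO. Petal libraries varied more than seedling libraries: ribosomal RNA took 3.82% to 48.8% of the FPKM sum in petals and 0.108% to 0.61% in seedlings, and 11490 to 18240 loci in petals and 7975 to 8361 in seedlings were listed at 0. Depth estimated from the step between low values was 56000000 to 63300000 reads in seedlings and 7680000 to 22000000 in the 8 petal libraries where a step was clear. No clear step was found in both co-10 libraries at ZT4, replicate 1 of 35S:CO at ZT4 and replicate 1 of Col-0 at ZT16. The depth of those libraries is therefore not known and may lie outside the range. The summed level of 5 petal markers was 951 to 2368 FPKM in petals and 8.16 to 12.4 FPKM in seedlings, although RBE, a petal identity gene, was at 0 in most petal libraries. At ZT16 that sum was 1466 to 1856 FPKM in 35S:CO, 954 to 1279 FPKM in co-10 and 951 to 1225 FPKM in Col-0. At ZT4 that sum was 1635 to 2108 FPKM in 35S:CO, 1683 to 2026 FPKM in co-10 and 1689 to 2368 FPKM in Col-0. The petal markers were thus highest in 35S:CO at ZT16, and the genotypes overlapped at ZT4. The part of this difference in other petal values was not tested. The summed level of 18 pollen and anther markers in petals at ZT16 was 855 to 1211 FPKM in 35S:CO, 2004 to 3296 FPKM in co-10 and 1406 to 2298 FPKM in Col-0. At ZT4 it was 798 to 893 FPKM in 35S:CO, 1511 to 1719 FPKM in co-10 and 579 to 1179 FPKM in Col-0. Of these markers 10 were at 0 in every petal library, among them the tapetum genes MS2, AMS and MS1. The part of pollen or anther RNA in the petal values was not tested. In these bulk samples fewer cells of a type and less RNA per cell cannot be told apart.

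Of 32548 nuclear loci, D was -2 or lower in 0.602% in 35S:CO petals, in 1.7% in co-10 petals and in 2.4% in Col-0 petals. It was so in both co-10 and Col-0 in 431 loci (1.32%). Among these 431, 133 (30.9%) also reached -2 in 35S:CO, 274 (63.6%) lay between, and 24 (5.57%) stayed above -0.5. The median D of the 431 was -1.59 in 35S:CO, -2.75 in co-10 and -2.88 in Col-0, so the 24 genes are the upper end of a continuous distribution (plot of D in both genotypes). Across the 24, D spanned -0.47 to 1.33 in 35S:CO (median -0.33), -4.31 to -2.02 in co-10 (median -2.46) and -5.84 to -2.03 in Col-0 (median -2.40). D in 35S:CO was above 0 in 5 of the 24 and above 1 in LHCB2.3 alone.

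**Figure D1:**
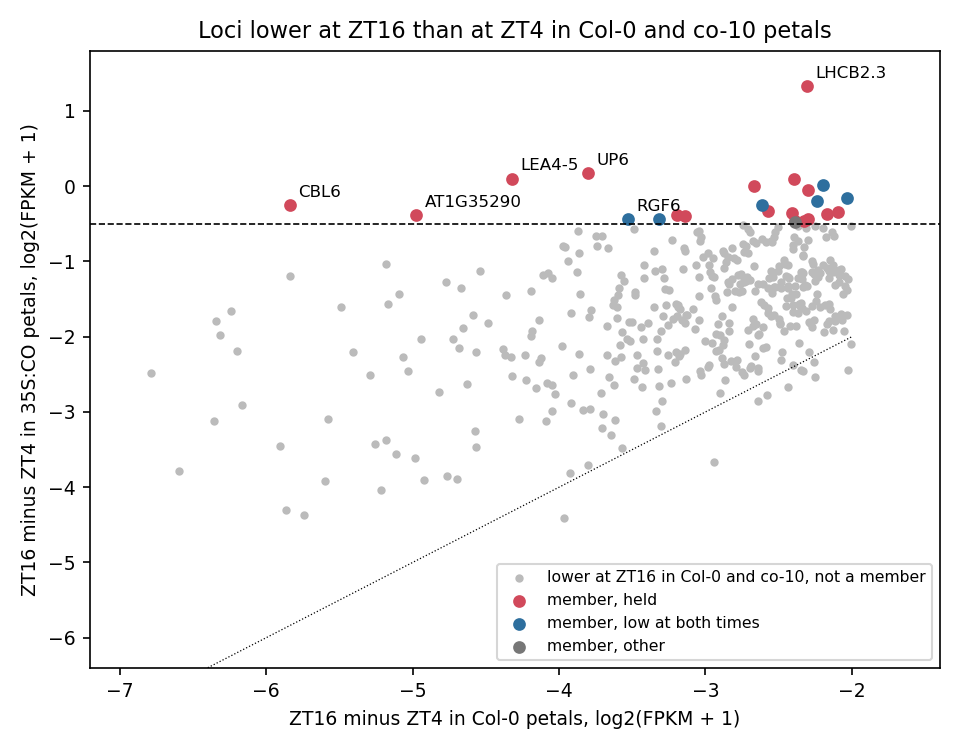
D, the log2(FPKM + 1) difference between ZT16 and ZT4, in 35S:CO petals (vertical) against Col-0 petals (horizontal) for the 431 loci at -2 or lower in Col-0 and co-10. The 24 genes (coloured by their pattern in 35S:CO) lie above the dashed line at -0.5, the dotted line marks equal D, and the other loci fill the space below without a gap.

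The choice was close for several genes. Just inside the 35S:CO limit were AT2G17845 and BLH6, both with a D of -0.47, and UGP2 at -0.46. Just outside were UPB1 at -0.51 and LGO and AT4G02420, both at -0.53. For the co-10 limit UGP2 (-2.02), AT5G65660 (-2.03) and GPX7 (-2.07) were just inside and AT1G64340 (-1.97), AT1G13930 (-1.91) and AT3G56060 (-1.89) just outside. For the Col-0 limit CLE5 (-2.03), SIGE (-2.10) and AT5G65660 (-2.17) were just inside and FP3 (-1.95), SAP10 and AT1G57590 (both -1.89) just outside.

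A small difference between times in 35S:CO can arise with high values at both times or with low values at both, and both occurred. In 17 genes the 35S:CO mean log2(FPKM + 1) at ZT16 was nearer the Col-0 mean at ZT4 than that at ZT16, and these are called held at dusk. Their 35S:CO level at ZT16 was 39.0% to 1476% of the Col-0 level at ZT4 in FPKM and was at or above the Col-0 ZT4 level in 6 genes. On the FPKM scale 4 of the 17 lay nearer the Col-0 level at ZT16, AT5G45950 (39.0%), LrgB (50.7%), FRO7 (52.6%) and PP2-B15 (58.7%), so these were held only in part. In 6 genes, AT2G21210, CLE5, ABCG19, RGF6, AT5G43450 and FRO6, both 35S:CO levels were nearer the low Col-0 level at ZT16. This goes against a description of them as kept at dusk, but AT5G43450 lay close to the midpoint. Its 35S:CO mean log2(FPKM + 1) at ZT16 was 1.09 above the Col-0 mean at ZT16, with a Col-0 D of -2.19. In FPKM it was at 46.2% of the Col-0 level at ZT4, above the 39.0% of AT5G45950. AT2G17845 met neither condition. Both 35S:CO libraries at ZT16 lay above both Col-0 libraries in 21 of the 24 genes (23.1% of all 17716 loci at 1 FPKM or more in 2 petal libraries) and above both co-10 libraries in 19 (14.3%). They lay above all 4 in 19 genes (9.79%). The rule that chose the genes itself favours such an order at ZT16, so these counts are a description only. At ZT4 both 35S:CO libraries lay below both Col-0 libraries in 8 genes (23.9%) and above both in 5 (14.2%). Within 35S:CO both ZT16 libraries lay below both ZT4 libraries in 8 genes (25.7%).

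**Figure D2:**
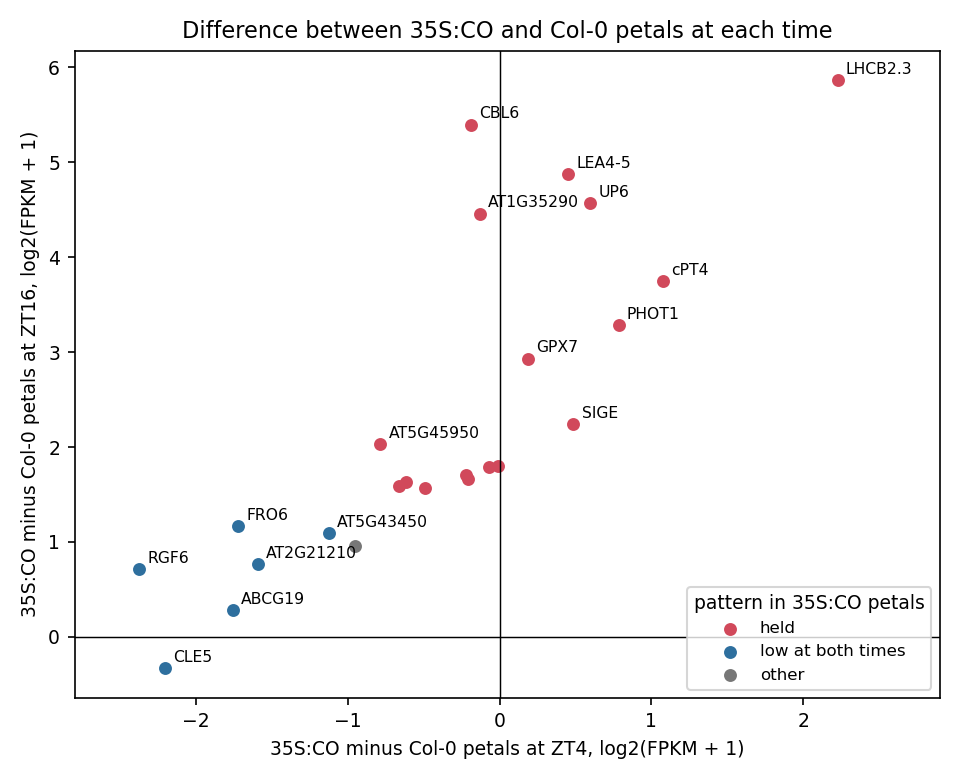
Difference between 35S:CO and Col-0 petals at ZT16 (vertical) and at ZT4 (horizontal) on the log2(FPKM + 1) scale for the 24 genes, coloured by pattern. The 17 genes held at dusk lie between 1.57 and 5.87 at ZT16, and the 6 genes low at both times lie left of 0 at ZT4 and between -0.33 and 1.16 at ZT16.

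Chloroplast and light-signalling genes were among those held. LHCB2.3 encodes a chlorophyll-binding protein of the photosystem II antenna. In 35S:CO petals LHCB2.3 had 81.6 and 46.1 FPKM at ZT16 and 25.8 and 22 FPKM at ZT4. The co-10 libraries held 0.305 and 0 FPKM at ZT16 and 11.9 and 3.12 FPKM at ZT4. In Col-0 petals the values were 0 and 0.144 FPKM at ZT16 and 3.8 and 4.86 FPKM at ZT4. The 35S:CO libraries were above every co-10 and Col-0 library at both times, and LHCB2.3 was the only member higher at ZT16 than at ZT4 by more than 1 (D of 1.33). The difference between 35S:CO and Col-0 on the log2(FPKM + 1) scale was 5.87 at ZT16 and 2.23 at ZT4. SIGE, also called SIG5, encodes a blue-light-induced sigma factor that directs the plastid RNA polymerase to promoters such as that of psbD. Its 35S:CO petal values were 30.8 and 38.2 FPKM at ZT16 and 44.7 and 42.5 FPKM at ZT4. Values in co-10 petals were 8.71 and 9.8 FPKM at ZT16 and 31.6 and 68.1 FPKM at ZT4. Col-0 petals held 5.71 and 7.26 FPKM at ZT16 and 25.6 and 37.2 FPKM at ZT4. Its 35S:CO level at ZT16 was 110% of the Col-0 level at ZT4, and the 35S:CO libraries were above all 4 others at ZT16. PHOT1, the blue-light receptor kinase of phototropism, was held at 186% of the Col-0 morning level. PHOT1 had 29.5 and 41.6 FPKM in 35S:CO petals at ZT16, 9.58 and 3.04 FPKM in co-10 petals and 1.77 and 3.94 FPKM in Col-0 petals. The 35S:CO range lay above the other two, which overlapped. At ZT4 PHOT1 had 32 and 33.1 FPKM in 35S:CO petals, 27.4 and 47.6 FPKM in co-10 petals and 14.3 and 23.8 FPKM in Col-0 petals. LrgB, a chloroplast envelope protein needed for normal chloroplast function, had 71.4 and 76.5 FPKM in 35S:CO petals at ZT16, 35.5 and 13 FPKM in co-10 petals and 26.1 and 20.5 FPKM in Col-0 petals. The 35S:CO level was 50.7% of the Col-0 morning level, so LrgB was held only in part.

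Summed levels of other photosynthetic genes in the same libraries differed between lists. The summed level of 5 Rubisco and Rubisco activase genes in petals at ZT16 was 4566 to 5152 FPKM in 35S:CO, 594 to 1674 FPKM in co-10 and 961 to 1378 FPKM in Col-0. At ZT4 it was 5220.5 to 6583 FPKM in 35S:CO, 2418 to 3248 FPKM in co-10 and 2338 to 3305 FPKM in Col-0. Rubisco was thus the highest in 35S:CO at both times. The summed level of 17 light-harvesting genes, LHCB2.3 left out, was 892 to 964 FPKM in 35S:CO, 619 to 1209.5 FPKM in co-10 and 799 to 1193 FPKM in Col-0 at ZT16. At ZT4 it was 4257 to 4669 FPKM in 35S:CO, 3734 to 6196 FPKM in co-10 and 5483 to 6603 FPKM in Col-0. The light-harvesting sum was therefore lower at ZT16 than at ZT4 in all 3 genotypes, 35S:CO included. The part of green tissue or plastid content in the levels of the 24 genes was not tested.

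CBL6 encodes a calcineurin B-like calcium sensor, a class of proteins that bind and recruit CIPK kinases. In 35S:CO petals CBL6 had 41 and 41.3 FPKM at ZT16 and 51 and 47.4 FPKM at ZT4. The co-10 libraries held 2.78 and 2.08 FPKM at ZT16 and 42.9 and 53.9 FPKM at ZT4. In Col-0 petals the values were 0 and 0 FPKM at ZT16 and 51.8 and 61 FPKM at ZT4. The 35S:CO libraries at ZT16 lay just below the 6 morning libraries, and CBL6 was listed at 0 in both Col-0 libraries at ZT16, the lowest Col-0 D of the 24 (-5.84). LEA4-5 encodes a late embryogenesis abundant protein that accumulates under water deficit. Its 35S:CO petal values were 61.5 and 56 FPKM at ZT16 and 79 and 37.8 FPKM at ZT4. Values in co-10 petals were 1.06 and 6.3 FPKM at ZT16 and 84.7 and 31.5 FPKM at ZT4. Col-0 petals held 0 and 3.15 FPKM at ZT16 and 61.5 and 25.6 FPKM at ZT4. The morning range overlapped among all 3 genotypes, whereas at ZT16 the 35S:CO libraries were above the other 4. UP6 is annotated as an unknown protein. In 35S:CO petals UP6 had 25.3 and 20.4 FPKM at ZT16 and 20.8 and 19.4 FPKM at ZT4. The co-10 libraries held 1.82 and 2.86 FPKM at ZT16 and 18.2 and 10.7 FPKM at ZT4. In Col-0 petals the values were 0 and 0 FPKM at ZT16 and 13.3 and 12.6 FPKM at ZT4. At ZT16 the groups did not overlap, and the Col-0 libraries were listed at 0. GPX7 encodes a chloroplast member of the glutathione peroxidase family. GPX7 had 15.2 and 12.8 FPKM in 35S:CO petals at ZT16, 1.06 and 1.5 FPKM in co-10 petals and 0.634 and 1.34 FPKM in Col-0 petals. At ZT4 it had 23.5 and 14.7 FPKM in 35S:CO petals, 6.09 and 11.8 FPKM in co-10 petals and 15.2 and 17.4 FPKM in Col-0 petals, with overlap between 35S:CO and Col-0.

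**Figure D3:**
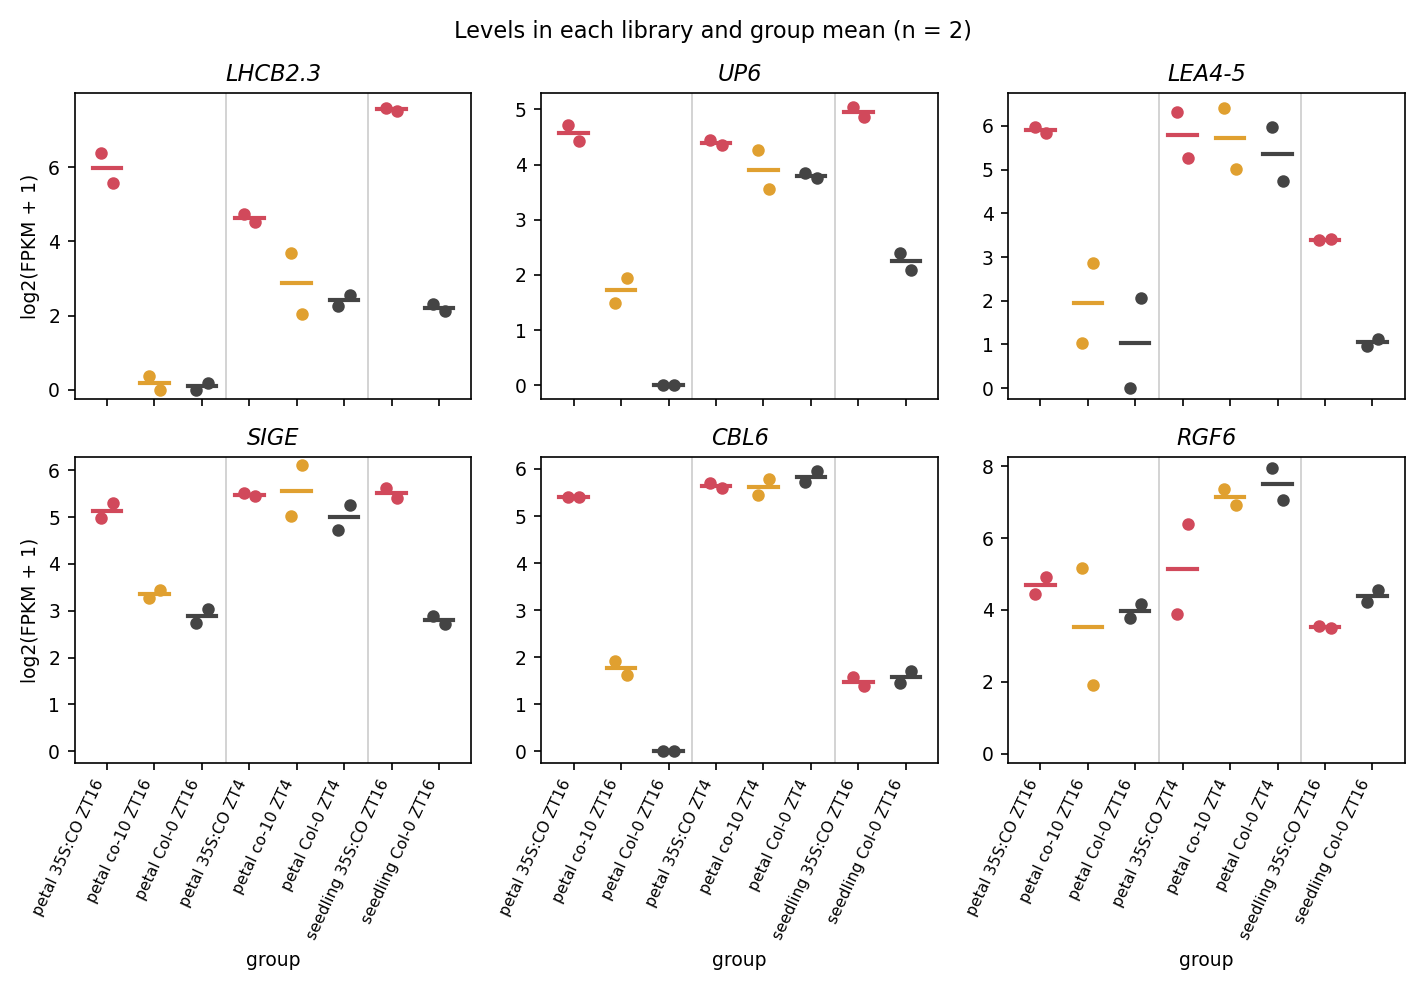
log2(FPKM + 1) of 6 genes in every library (points, 2 per group) with the group mean (bar), for petals at ZT16, petals at ZT4 and seedlings at ZT16. In the first 5 panels the 35S:CO petals at ZT16 lie above the co-10 and Col-0 petals at ZT16. In RGF6 they overlap with co-10, and the 35S:CO seedlings lie below the Col-0 seedlings.

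Lipid and carbohydrate enzymes held the most abundant transcripts of the 24. AT1G35290 encodes an acyl-lipid thioesterase, which releases fatty acyl products in plastids. In 35S:CO petals AT1G35290 had 575 and 444 FPKM at ZT16 and 789 and 553 FPKM at ZT4. The co-10 libraries held 53.8 and 6.5 FPKM at ZT16 and 456 and 355 FPKM at ZT4. In Col-0 petals the values were 22.5 and 21.5 FPKM at ZT16 and 1060.5 and 493 FPKM at ZT4. Both 35S:CO libraries at ZT16 were far above the 4 other dusk libraries and within the range of the morning libraries. AT5G45950 encodes a GDSL-type esterase or lipase of the class found in epidermal lipid metabolism. Its 35S:CO petal values were 1761 and 1746 FPKM at ZT16 and 2869.5 and 1814 FPKM at ZT4. Values in co-10 petals were 1134 and 115 FPKM at ZT16 and 2356 and 3122 FPKM at ZT4. Col-0 petals held 361 and 507 FPKM at ZT16 and 6669 and 2319 FPKM at ZT4. Both morning and dusk values of the low-CO genotypes were widely spread, but the 35S:CO libraries at ZT16 were above all 4 others. cPT4, a cis-prenyltransferase, had 23.1 and 22.2 FPKM in 35S:CO petals at ZT16, 1.2 and 0.278 FPKM in co-10 petals and 0 and 2.1 FPKM in Col-0 petals. Its D in 35S:CO was the nearest to no change among the 24, and its level was also higher in 35S:CO than in Col-0 at ZT4, 20.1 and 25.6 FPKM against 6.01 and 16.9 FPKM. UGP2 encodes UDP-glucose pyrophosphorylase, which makes the sugar donor for sucrose and cell walls. UGP2 had 56.8 and 72 FPKM in 35S:CO petals at ZT16, 47 and 12.1 FPKM in co-10 petals and 16.5 and 21.7 FPKM in Col-0 petals. The 35S:CO range lay above the others, with replicate 1 of co-10 close below it. CYP71A24, a cytochrome P450, had 104 and 121 FPKM in 35S:CO petals at ZT16, 75.4 and 18.7 FPKM in co-10 petals and 26.8 and 44.9 FPKM in Col-0 petals. It stayed above both low-CO genotypes in both libraries.

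Iron reduction was represented by a pair of neighbours. FRO6 and FRO7 are ferric chelate reductases, of the plasma membrane and of the chloroplast, and lie next to each other on chromosome 5 (chr5:20201037-20204595 and chr5:20205302-20208777, minus strand), 706 bases apart. In 35S:CO petals FRO7 had 15.1 and 15.7 FPKM at ZT16 and 16.7 and 23.8 FPKM at ZT4. The co-10 libraries held 7.13 and 2.38 FPKM at ZT16 and 27.2 and 81 FPKM at ZT4. In Col-0 petals the values were 3.63 and 5.64 FPKM at ZT16 and 22.2 and 36.5 FPKM at ZT4. The 35S:CO libraries at ZT16 were above all 4 others. FRO6 was listed at 0 in replicate 1 of 35S:CO petals at both times, and replicate 2 had 4.03 FPKM at ZT16 and 8.12 FPKM at ZT4. It had 0 and 0.753 FPKM at ZT16 and 13.4 and 29.2 FPKM at ZT4 in co-10 petals. In Col-0 petals both ZT16 libraries were listed at 0, and the ZT4 libraries had 7.71 and 10.4 FPKM. The small D of FRO6 in 35S:CO therefore goes with means that were low at both times, and 1 library decides them. In that library the ZT4 value of 8.12 FPKM lay between the Col-0 values at ZT4. Of the 75-base stretches of these transcripts, 12.1% in FRO6 and 9.43% in FRO7 also occur elsewhere in the annotated transcripts, so part of their reads could have been assigned to either.

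The remaining held genes were BLH6, a BELL-type homeodomain factor of secondary wall formation, PP2-B15, a protein of the phloem lectin family, and AT5G65660, a hydroxyproline-rich protein. BLH6 had 37.8 and 25 FPKM in 35S:CO petals at ZT16, 8.76 and 5.03 FPKM in co-10 petals and 9.76 and 6.86 FPKM in Col-0 petals. PP2-B15 had 84.8 and 84.5 FPKM in 35S:CO petals at ZT16, 62.1 and 13.1 FPKM in co-10 petals and 24.6 and 30.6 FPKM in Col-0 petals. AT5G65660 had 74 and 70.9 FPKM in 35S:CO petals at ZT16, 36.5 and 13.4 FPKM in co-10 petals and 17.4 and 23.3 FPKM in Col-0 petals. The 35S:CO range was the highest in all 3 genes. AT2G17845, a Rossmann-fold oxidoreductase with an intermediate level, had 30.2 and 49.8 FPKM in 35S:CO petals at ZT16, 59.5 and 3.29 FPKM in co-10 petals and 16.5 and 23.1 FPKM in Col-0 petals. The co-10 values lay on both sides of the 35S:CO range.

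The 6 genes that were low at both times in 35S:CO included 2 peptide signals and an auxin-response gene. RGF6 (GOLVEN1) encodes a secreted peptide of the root meristem growth factor family. In 35S:CO petals RGF6 had 21 and 29.2 FPKM at ZT16 and 13.7 and 82.3 FPKM at ZT4. The co-10 libraries held 35.1 and 2.74 FPKM at ZT16 and 163 and 120.2 FPKM at ZT4. In Col-0 petals the values were 12.8 and 16.9 FPKM at ZT16 and 246 and 133 FPKM at ZT4. At ZT4 both 35S:CO libraries were below the 4 others, and the 35S:CO replicates themselves differed widely. CLE5, a CLAVATA3-type peptide gene, was at 0 in the 35S:CO petals of both replicates at ZT16 and had 0 and 0.252 FPKM at ZT4, against 7.92 and 5 FPKM in co-10 and 8.31 and 1.85 FPKM in Col-0 at ZT4. AT2G21210, a small auxin up RNA gene, had 2.97 and 0.848 FPKM in 35S:CO petals at ZT4, 6.67 and 10 FPKM in co-10 petals and 8.93 and 5.73 FPKM in Col-0 petals. Both genes had low levels in petals, and in both the 35S:CO morning values were below the other 4. ABCG19, an ATP-binding cassette transporter, had 19 and 11.9 FPKM in 35S:CO petals at ZT4, 68.1 and 88.6 FPKM in co-10 petals and 56 and 50.4 FPKM in Col-0 petals. At ZT16 it had 11.9 and 14.1 FPKM in 35S:CO petals, 22.8 and 8.26 FPKM in co-10 petals and 8.26 and 13.2 FPKM in Col-0 petals, and the groups overlapped. AT5G43450, a 2-oxoglutarate-dependent oxygenase, had 28.2 and 50.4 FPKM at ZT4 in 35S:CO petals, 59.3 and 95.9 FPKM in co-10 petals and 89.3 and 78.1 FPKM in Col-0 petals. Here too the 35S:CO morning libraries were the lowest. At ZT16 AT5G43450 averaged 38.7 FPKM in 35S:CO petals, 17.2 FPKM in co-10 petals and 17.8 FPKM in Col-0 petals.

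**Figure D4:**
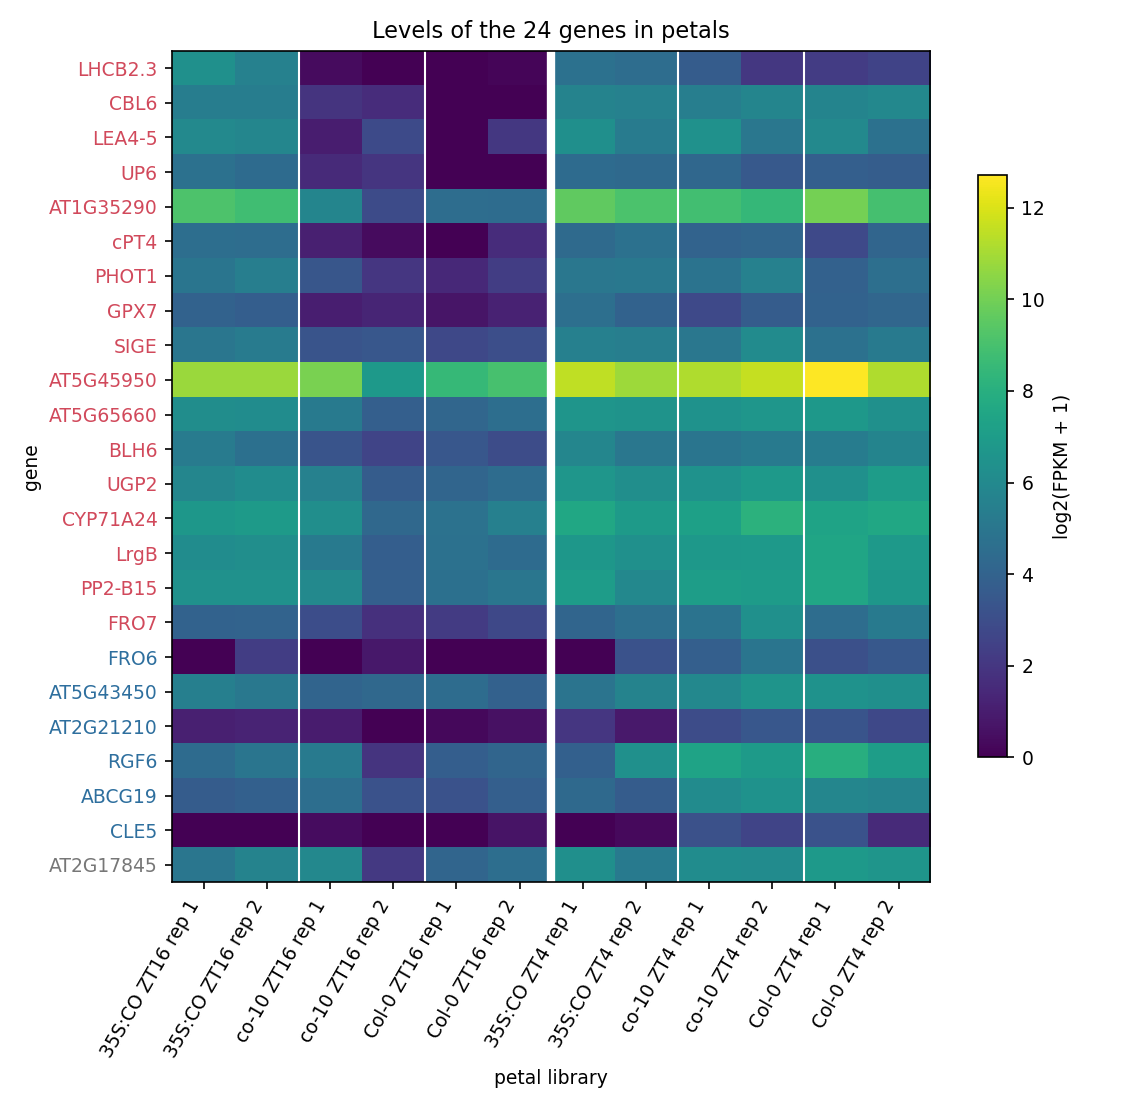
log2(FPKM + 1) of the 24 genes (rows) in the 12 petal libraries (columns), with ZT16 left of the thick line and ZT4 right of it. Gene names are coloured red for the 17 genes held at dusk in 35S:CO, blue for the 6 low at both times and grey for AT2G17845. In the upper 17 rows the mean of the 2 leftmost columns is nearer the Col-0 mean at ZT4 than that at ZT16 on this scale.

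The 2 co-10 libraries at ZT16 did not give the same picture of these genes. Among the 19 genes with a co-10 mean of at least 1 FPKM at ZT16, replicate 1 was the higher in 14, and the median log2 ratio of replicate 1 to replicate 2 was 1.38, against 0.30 over 15962 loci. The replicates differed more than 2-fold in 13 of the 19, against 23.2% of all loci. Of the 24 genes, replicate 1 was above both Col-0 libraries at ZT16 in 17, whereas replicate 2 was below both in 13 and above both in 6. Replicate 1 was above at least 1 of the 35S:CO libraries in 4 genes. The shares of all loci with such an order were not computed, so these counts describe the 24 genes only. Without replicate 1 the same rule gave 39 genes and without replicate 2 it gave 16. Leaving out replicate 1 of 35S:CO gave 37 genes at ZT16 and 46 at ZT4, and CBL6 and LEA4-5 alone met the rule whichever petal library was left out. The order of co-10 and Col-0 at dusk is therefore not resolved for most of these genes.

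A list of 14 clock genes taken as morning-phased gave a point of comparison in petals. Of the 14, D was -2 or lower in both low-CO genotypes in 9 and in all 3 genotypes in 4, and none met the rule. RVE2 and RVE6 went against that name, with a D of 4.29 and 0.13 in 35S:CO, 5.16 and 0.64 in co-10, and 4.13 and 0.44 in Col-0. LHY, a morning clock repressor, had a D of -0.87 in 35S:CO, -2.32 in co-10 and -2.74 in Col-0, and averaged 20.7 ± 8.87 FPKM in 35S:CO petals at ZT16, 2.54 ± 0.467 FPKM in co-10 petals and 2.26 ± 1.61 FPKM in Col-0 petals (SD, n = 2 each). RVE8, a clock activator, had a D of -1.05 in 35S:CO, -3.21 in co-10 and -3.42 in Col-0. Of 18 light-harvesting genes, D was -2 or lower in both low-CO genotypes in 11 and in all 3 genotypes in 8, and LHCB2.3 was the only one to meet the rule. Its closest relatives LHCB2.1 and LHCB2.2 had a D of -3.79 and -3.91 in 35S:CO, -6.09 and -5.50 in co-10, and -6.59 and -5.60 in Col-0. No 75-base stretch of the LHCB2.3 transcript occurs in another annotated transcript.

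The seedlings did not enter the choice, and they show whether these transcripts differ with CO overexpression outside the petal. The 4 seedling libraries, all from ZT16, were compared by limma on log2(FPKM + 1) over the 19214 genes that reached 1 FPKM in 2 of them. Of the 24 genes 20 were tested, and PP2-B15, AT2G17845, CLE5 and CYP71A24 were below 1 FPKM in all 4 libraries. At a Benjamini-Hochberg adjusted p under 0.05, 5 of the 20 genes passed, against 2252 of all genes tested (11.7%), a total that fell to 54 without replicate 1 and 138 without replicate 2 of 35S:CO. By direction, 4 of the 20 rose (5.5% of all genes tested rose) and 1 fell (6.22% of all genes fell). The other 15 did not pass, with differences of -0.43 to 0.71 and adjusted p of 0.0647 to 0.927. The median difference was 0.19 over the 20 genes and -0.09 over all genes tested, and 13 of the 20 were above 0. All 4 genes that rose were among those held at dusk in 35S:CO petals, and the gene that fell was low at both times. However, 11 held genes and 4 genes low at both times did not pass. No test of that split was made. Both 35S:CO libraries lay above both Col-0 libraries in 11 of the 20 (19.1% of all genes tested) and below both in 5 (43.2%).

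LHCB2.3 had 193 and 181 FPKM in 35S:CO seedlings and 3.93 and 3.33 FPKM in Col-0 seedlings, a mean of 187 ± 8.12 against 3.63 ± 0.426 FPKM (SD, n = 2 each). It rose by 5.35 ± 0.10 on the log2 scale (SE, limma adjusted p = 2.48e-04), and 3 of all genes tested had a larger difference. SIGE had 48.4 and 41.6 FPKM in 35S:CO seedlings and 6.44 and 5.54 FPKM in Col-0 seedlings. Its difference was 2.72 ± 0.12 (SE, limma adjusted p = 0.0011), and these 2 genes passed whichever seedling library was left out. UP6 had 31.8 and 28 FPKM in 35S:CO seedlings and 4.29 and 3.28 FPKM in Col-0 seedlings, a difference of 2.70 ± 0.14 (SE, limma adjusted p = 0.00153). LEA4-5 had 9.46 and 9.58 FPKM in 35S:CO seedlings and 0.966 and 1.19 FPKM in Col-0 seedlings, a difference of 2.34 ± 0.11 (SE, limma adjusted p = 0.00128). Without replicate 1 of 35S:CO the adjusted p of both missed the threshold, at 0.0624 for UP6 and 0.0602 for LEA4-5. RGF6 fell, with 10.7 and 10.3 FPKM in 35S:CO seedlings and 17.6 and 22.7 FPKM in Col-0 seedlings, a difference of -0.87 ± 0.14 (SE, limma adjusted p = 0.0233). That call was lost without either 35S:CO library, at adjusted p of 0.188 without replicate 1 and 0.175 without replicate 2. In a fit over all 16 libraries LEA4-5 and RGF6 missed the threshold, at limma adjusted p of 0.2 and 1.

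**Figure D5:**
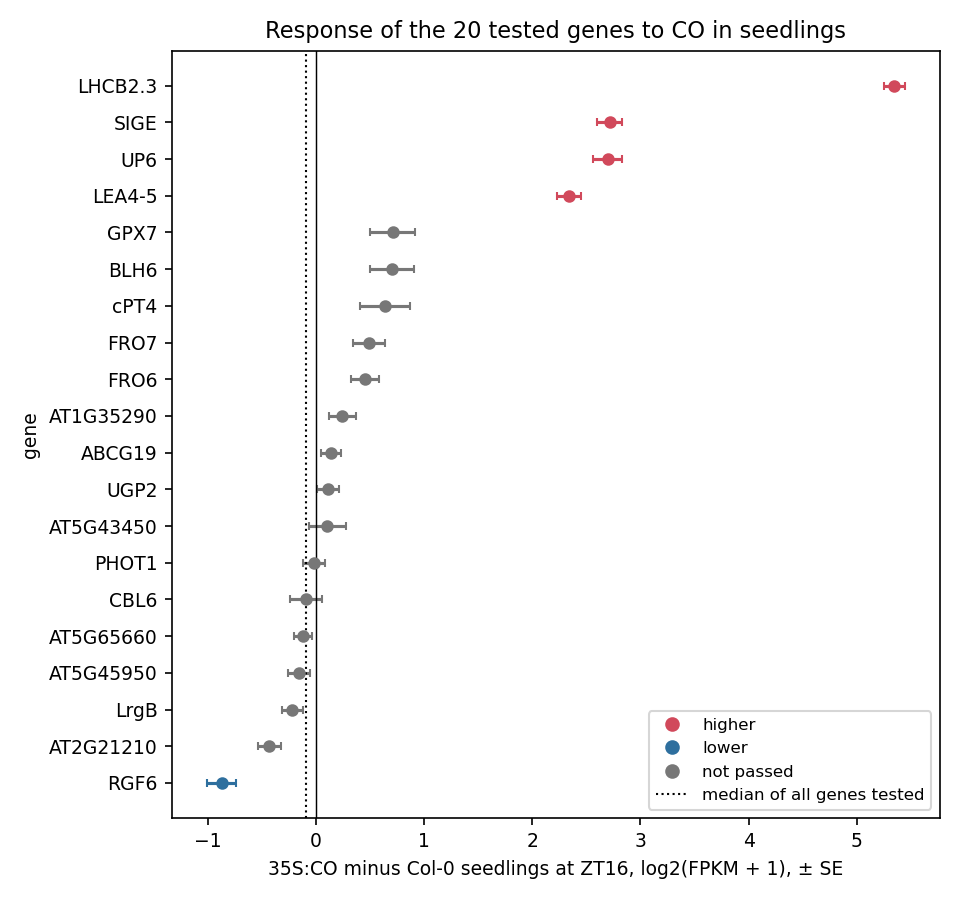
Difference between 35S:CO and Col-0 seedlings at ZT16 on the log2(FPKM + 1) scale with its SE (limma, 2 libraries per group) for the 20 genes tested, coloured by call. LHCB2.3, SIGE, UP6 and LEA4-5 lie between 2.34 and 5.35, the other genes lie between -0.87 and 0.71, and the dotted line is the median of all genes tested at -0.09.

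Some genes with a large dusk difference between 35S:CO and Col-0 petals did not pass the test in seedlings. CBL6 had 1.98 and 1.6 FPKM in 35S:CO seedlings and 1.71 and 2.26 FPKM in Col-0 seedlings, a difference of -0.09 ± 0.15 (SE) with limma adjusted p = 0.707. AT1G35290 had 2.71 and 2.48 FPKM in 35S:CO seedlings and 1.84 and 2.25 FPKM in Col-0 seedlings, far below its petal level, and its difference of 0.24 ± 0.12 had limma adjusted p = 0.262. PHOT1, with 72.3 and 70.4 FPKM in 35S:CO seedlings and 67.1 and 77.6 FPKM in Col-0 seedlings, differed by -0.02 ± 0.10 (limma adjusted p = 0.927). A chloroplast or light role was thus shared by genes with and without a seedling response. GPX7 (0.71 ± 0.21), BLH6 (0.70 ± 0.20), cPT4 (0.64 ± 0.23), FRO7 (0.49 ± 0.14) and FRO6 (0.46 ± 0.13) were among the 11 genes without overlap and did not pass, with limma adjusted p of 0.0917 to 0.153. FRO6, near 0 in petals at dusk, was well expressed in seedlings, with 48 and 42.3 FPKM in 35S:CO and 29.3 and 36.2 FPKM in Col-0.

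Several lists of clock and chloroplast genes were compared in the same seedlings, where 5.5% of all genes tested rose and 6.22% fell. Of the 14 clock genes taken as morning-phased 11 rose and none fell (median difference 1.93), and LHY rose by 2.65 ± 0.12 (SE, limma adjusted p = 0.00128). Of 17 light-harvesting genes tested 14 rose and none fell (median 1.77), with LHCB2.1 at 3.82 ± 0.16 (limma adjusted p = 0.00104). Of 19 photosystem subunit genes 9 rose and none fell (median 0.37), and of 9 chlorophyll synthesis genes 5 rose and none fell (median 1.22). Of 12 evening-phased clock genes 2 rose and 1 fell (median 0.05). Of 5 Rubisco and activase genes none rose and 1 fell (median 0.01), and of 8 cold-regulated genes none rose and 1 fell (median -0.16). These counts rest on both 35S:CO libraries. Without replicate 1, 1 of 9 morning-phased and 7 of 17 light-harvesting genes rose (54 genes passed in all), and without replicate 2 the counts were again 1 of 9 and 7 of 17 (138 genes in all). The medians were then 1.53 and 1.60 for the morning-phased list and 1.85 and 1.70 for the light-harvesting list.

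The 24 genes were spread over all 5 chromosomes, with 4, 3, 4, 4 and 9 on chromosomes 1 to 5. Their median transcript length of 1450.5 bases was close to the 1516.5 bases of 27444 protein-coding loci, and 5 of 24 (20.8%) had a single exon, against 20.5%. Several overlap a gene on the other strand: LHCB2.3 (chr3:10255906-10257489, plus strand) shares 595 bases with AT3G27700, RGF6 (chr4:9305166-9305845, minus) 673 bases with AT4G16510, GPX7 (chr4:15410078-15412486, plus) 751 bases with AT4G31875, cPT4 (chr5:23734273-23735767, plus) 148 bases with cPT5 and UP6 (chr1:5726368-5727406, minus) 111 bases with HCF173. UP6 also shares 116 bases with AT1G05257, which averaged 0 FPKM in all 3 petal groups at ZT16. The library kit keeps the strand, but whether the counting used it is not given in the sources used here. AT3G27700 averaged 9.29 FPKM in 35S:CO petals at ZT16, 9.34 FPKM in co-10 petals and 9.46 FPKM in Col-0 petals, so it did not follow LHCB2.3. AT4G31875, like GPX7, was lower at ZT16 than at ZT4 in Col-0 petals (0.608 against 8.83 FPKM) and co-10 (0.908 against 5.47 FPKM). In 35S:CO petals it had 2.48 against 5.84 FPKM. HCF173, like UP6, was highest in 35S:CO petals at ZT16 (74.5 FPKM, against 44.2 FPKM in co-10 and 38.2 FPKM in Col-0). In seedlings HCF173 averaged 106 FPKM in 35S:CO and 61.1 FPKM in Col-0, and AT1G05257 7.68 FPKM and 1.59 FPKM. The part of partner reads in the values was not tested. AT2G21210 shares 7.68% of its 75-base stretches with AT2G21200, which it overlaps by 176 bases on the same strand. AT2G21200 averaged 1.52 FPKM in 35S:CO petals at ZT4, 6 FPKM in co-10 petals and 4.96 FPKM in Col-0 petals. AT2G21210 averaged 1.91, 8.34 and 7.33 FPKM there. At ZT16 AT2G21200 averaged at most 0.427 FPKM in the petal groups. Whether the petal values of AT2G21210 hold reads of AT2G21200 was not tested. Of the 24 genes 20 share no stretch.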

How the data were processed

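RNA of petals (12 libraries) and whole seedlings (4 libraries) was sequenced from TruSeq stranded mRNA libraries, per the labels' protocols. The authors deposited FPKM per locus for all 16 libraries. FastQC, HISAT2 and the TAIR10 build are named in the submitters' processing notes, and the sources used here do not give the counting tool or its strand setting. FPKM hold no counts, so depth was estimated from the spacing of low values at loci with 1 transcript, and no counting interval is given.

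Levels were taken as log2(FPKM + 1), which understates changes of low genes. The 24 genes and the gene lists were chosen with earlier results of these data known, and all 24 are named. Petal values were not tested. Seedlings were compared by limma 3.58.1 with trended, robust variance (statmod 1.5.0, R 4.3.3), two-sided, with Benjamini-Hochberg adjustment over all genes tested, after a test on simulated data. Gene models, upstream windows and sequences came from RefSeq TAIR10.1, where all 32548 nuclear loci matched.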

Additional observations from a re-analysis of the deposited data

Results flagged for a closer look

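In 6 genes the 35S:CO libraries lay above the Col-0 libraries in petals at ZT16 and below them in seedlings at ZT16, without overlap in either tissue. The petal direction was largely fixed by the choice of genes, and the difference between tissues was not tested. The seedling difference on the log2(FPKM + 1) scale was -0.87 for RGF6, -0.43 for AT2G21210, -0.36 for PP2-B15, -0.22 for LrgB, -0.16 for AT5G45950 and -0.12 for AT5G65660. RGF6 alone passed the test in seedlings, and PP2-B15 was below 1 FPKM in all seedling libraries and was not tested. The petal separation (higher) was seen in 23.1% of the 17716 loci at 1 FPKM or more in 2 petal libraries. The seedling separation (lower) was seen in 43.2% of the 19214 genes tested in seedlings. The share of loci with both was not computed.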

How the results depend on the processing

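The 24 genes became 75 with a pseudocount of 0.1 (23 shared, 48 held at dusk), 32 with 0.5 (24 shared), 21 after rescaling without ribosomal RNA and organelle loci (17 shared), 17 after quantile normalization (15 shared) and 23 at 5 FPKM or more (23 shared). Leaving out 1 petal library gave 16 to 46 genes, of which 10 to 28 were held. It gave 37 without replicate 1 of 35S:CO at ZT16, 39 without replicate 1 of co-10 at ZT16 and 46 without replicate 1 of 35S:CO at ZT4. CBL6 and LEA4-5 alone met the rule in all 17 settings, and 12 genes met it in the 5 that kept every library.

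In seedlings 2252 genes passed, against 1178 with a replicate block, 696 in a fit over all 16 libraries and 54 to 3129 with 1 library left out (54 without replicate 1 and 138 without replicate 2 of 35S:CO, the lone library being assumed to vary like the other group). The replicate numbers were not shown to pair the libraries (correlation of deviations across 19214 genes -0.02), and 5 members were called under the block too. They were 3 over all 16 libraries and 2 to 7 with 1 library left out. The median difference of the members was 0.11 without the filter, 0.11 over all 16 libraries and 0.13 to 0.32 with 1 library left out. No called difference changed sign under any of these settings. At petal depth values listed at 0 do not show absence. The causes were not tested.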
